A study of Homo sapiens with 6 samples.

Results

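A set of 45 genes for the attachment of tumour cells to their matrix was followed in liver cancer cells treated with compound 6j. It holds collagen receptor kinases, integrin chains, collagens, laminins, matricellular proteins, lysyl oxidases, matrix metalloproteinases with their TIMP inhibitors, and urokinase with its receptor. The genes were taken by symbol from a table of 25445 rows, and all 45 were found. After removal of rows with low counts, 38 of the 45 were tested, among 15957 rows tested in all.

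The cells were MHCC-97H, an established human hepatocellular carcinoma line. They received the solvent alone or 10 μM 6j, which was made from sophoridine, an alkaloid of plants, for 16 h, and 3 libraries of each group were sequenced after selection of polyadenylated RNA. The samples given solvent carry the treatment label none and are called non-treated cells here, and all libraries come from this 1 line in the same serum-containing medium. The labels do not say whether the replicates were separate cultures, so the p-values measure the spread between these libraries, which may be technical.

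Total counts were 31533403 to 37919879 in non-treated libraries (median 35216147) and 35002336 to 38018349 in 6j treated libraries (median 36940298). The labelled cell type was only partly visible in its markers. Of 10 hepatocyte lineage genes, 7, among them ALB, AFP and APOA1, were under 1 CPM in every library, whereas the epithelial keratins KRT8 and KRT18 were abundant. The summed level of the 10 was 905 to 1110 CPM in non-treated and 706 to 825 CPM in 6j treated libraries, and KRT8 fell by 0.58 on the log2 scale (adjusted p = 0.0211, edgeR). Most markers of stromal, endothelial and blood cells were low. PDGFRA, a fibroblast receptor, and PTPRC and CD3E, leukocyte genes, were at 0 in every library. Sums of the 6 fibroblast and stellate cell markers were 7.27 to 8.74 CPM in non-treated libraries and 5.57 to 8.01 CPM with 6j. Of the 6, 4 were under 1 CPM in every library. PDGFRB held 5.42 to 6.81 CPM in non-treated and 3.77 to 5.45 CPM in 6j treated libraries. RGS5 was at 1.25 to 1.97 and 1.51 to 2.35 CPM. For the 5 endothelial markers the sums were 2.39 to 6.31 and 2.24 to 4.03 CPM, with 4 of the 5 under 1 CPM in every library. For the 5 leukocyte markers they were 40.3 to 70.8 and 42.5 to 53.1 CPM, of which the macrophage marker CD68 alone held 39.8 to 70.5 and 41.8 to 52.1 CPM, and the other 4 were under 1 CPM in every library. The part of these markers in the results was not tested.

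Cells hold on to collagen through integrins, which pair an alpha with a beta chain, and through the discoidin domain receptors DDR1 and DDR2, tyrosine kinases that collagen itself switches on. Collagens and laminins are built from several chains, so their supply depends on more than 1 gene. Lysyl oxidases cross-link collagen outside the cell, metalloproteinases and the urokinase system degrade matrix, and TIMP proteins inhibit the metalloproteinases.

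DEGs were called by edgeR's quasi-likelihood test where the p, adjusted by Benjamini and Hochberg's method over all rows tested, was under 0.05 and the level changed more than 1.5-fold. Levels are CPM, the usual per-library scaled count on TMM normalized sizes, and levels of different genes are compared only as RPKM, which is CPM per kilobase of exon. DDR2 was the only one of the 38 genes tested that was called, while 3.6% of all rows tested were called (574 DEGs), 2.48% higher and 1.12% lower in 6j treated cells. Without the fold change minimum, 3 of the 38 had an adjusted p under 0.05, against 9.16% of all rows. These were DDR2, higher, against 4.79% of all rows on that side, and DDR1 and COL4A1, lower, against 4.37%. The median log2 fold change of the 38 was 0.05, beside 0.00 over all rows, with 22 genes above 0 and 16 below. The 95% interval of the fold change lay inside 1.5-fold in either direction for 18 of the 38 genes and inside 2-fold for 26. Libraries with the same replicate number deviated together only weakly, with correlations of 0.171, 0.18 and 0.312 across all rows tested. A second fit carried the number as a block, although the labels do not say what it stands for. That fit called 1 gene, DDR2 again, against 6.47% of all rows (4.01% higher and 2.46% lower). It gave an adjusted p under 0.05 to 10 of the 38, against 26.9% of all rows, with 4 of the 10 higher (13.1% of all rows) and 6 lower (13.9%).

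**Figure D1:**
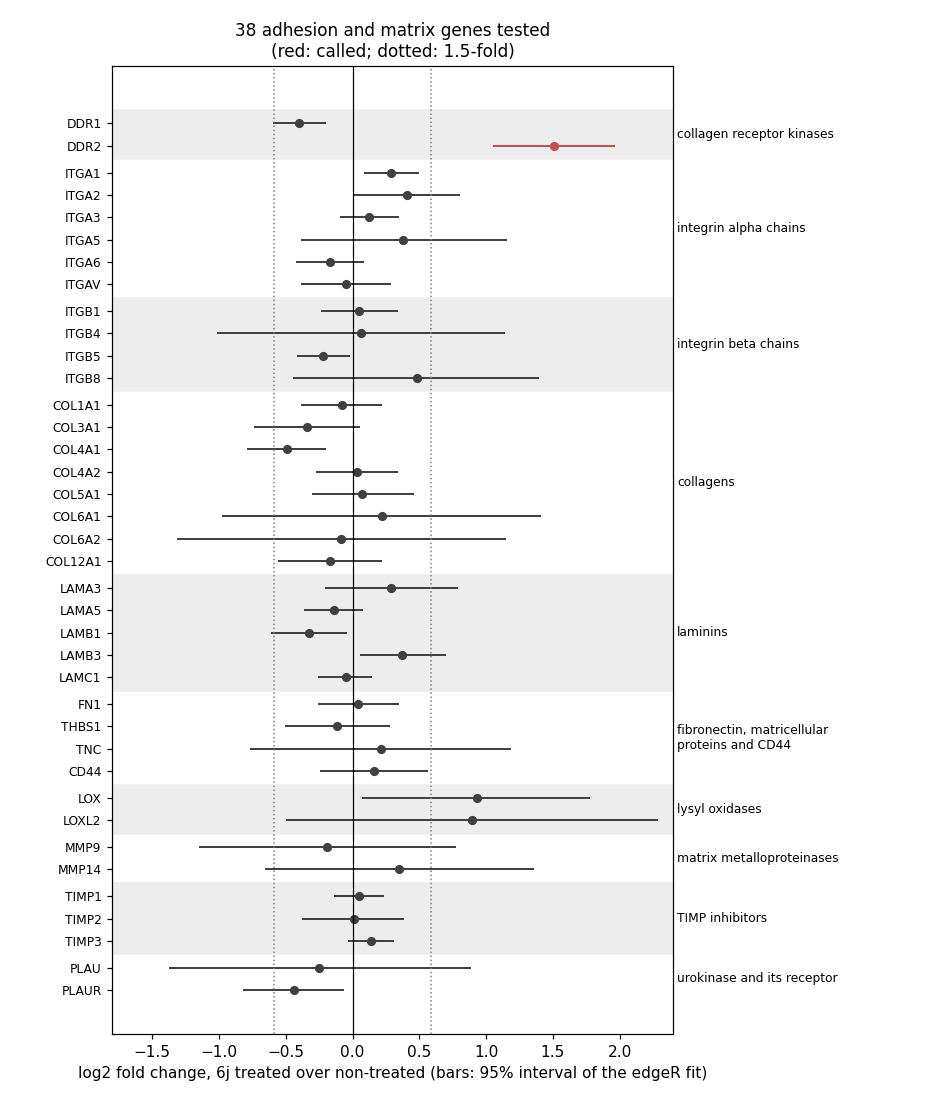
The log2 fold change of 6j treated over non-treated cells is plotted for each of the 38 genes tested, grouped by class, with bars for the 95% interval of the edgeR fit and dotted lines at 1.5-fold. DDR2, in red, is the only gene called (1.51), and LOXL2 has the widest interval of the 38 (-0.49 to 2.28).

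The collagen receptor kinases moved in opposite directions, DDR2 up and DDR1 down. DDR2, which responds mainly to fibrillar collagens, lies on chromosome 1 from 162631373 to 162787400 (GRCh38) and shares no exon with another annotated gene. RefSeq places 3 start sites at the front of the gene (GRCh38.p14), and windows from 250 bases before to 50 after the outer 2 are printed because DDR2 is the called gene. The first start lies before the gene start given by GENCODE version 29. Capitals mark an AP-1 motif in the first window, at bases -1 to 6 from the start, and a C/EBP-ATF composite motif (TGATGNAA, read on the other strand) in the second, at bases 11 to 18.
DDR2 first start, chr1:162630613-162630912, plus strand: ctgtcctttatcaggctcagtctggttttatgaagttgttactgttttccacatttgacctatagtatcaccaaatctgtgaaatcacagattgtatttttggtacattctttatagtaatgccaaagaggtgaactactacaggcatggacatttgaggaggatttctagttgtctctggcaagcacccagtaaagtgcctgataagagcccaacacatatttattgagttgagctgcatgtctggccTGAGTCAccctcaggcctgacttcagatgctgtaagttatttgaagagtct
DDR2 last start, chr1:162632214-162632513, plus strand: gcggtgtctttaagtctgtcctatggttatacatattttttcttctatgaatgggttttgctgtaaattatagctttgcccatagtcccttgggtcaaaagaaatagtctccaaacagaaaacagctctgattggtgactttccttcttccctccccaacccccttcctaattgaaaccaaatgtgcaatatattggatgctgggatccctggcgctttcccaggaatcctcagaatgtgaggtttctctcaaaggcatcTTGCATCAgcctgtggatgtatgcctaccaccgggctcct
The window of the middle start, chr1:162631725-162632024, held neither motif, nor the CRE motif TGACGTCA or the TEAD motif GGAATG. Over all RefSeq windows of this length, searched on both strands, 7.71% held the AP-1 motif TGANTCA, 3.62% the composite motif, 1.85% the CRE and 14% the TEAD motif. RefSeq windows were at hand for 33 of the 45 genes, 53 windows in all, and 13.2%, 3.77%, 1.89% and 11.3% of these held the same motifs in that order. A match is a run of letters and not evidence of binding.

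DDR2 stood at 3.16, 2.85 and 2.67 CPM in non-treated replicates 1 to 3 and at 6.84, 9.76 and 8.15 CPM in 6j treated replicates 1 to 3. Every 6j treated library was above every non-treated library. The means were 2.89 ± 0.246 and 8.25 ± 1.46 CPM (SD, n = 3), and the log2 fold change was 1.51 (standard error, SE, 0.20, adjusted p = 0.00559, edgeR), a fold of 2.85. DDR2 was called in each of the 6 fits that left out 1 library, with values of 1.37 to 1.63. It was not called when edgeR tested directly for more than 1.5-fold (adjusted p = 0.0649, glmTreat in edgeR). The study picked DDR2 from these libraries for RT-qPCR, so its appearance here is not independent evidence of its direction. In bulk RNA, a shift in the share of cells that express a gene and a shift in RNA per cell cannot be told apart.

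DDR1, the receptor that binds fibrillar and basement membrane collagens in epithelial cells, was at 147, 152 and 142 CPM in non-treated replicates 1 to 3 and at 109, 104 and 122 CPM in 6j treated replicates 1 to 3. All 6j treated libraries were below all non-treated libraries. DDR1 fell by 0.40 on the log2 scale (SE 0.08, adjusted p = 0.023, edgeR), short of 1.5-fold, with an adjusted p of 0.00218 in the fit with the replicate block. With 1 library left out, the values were -0.46 to -0.35, and the adjusted p was above 0.05 in 4 of 6 such fits, the highest being 0.109 without 6j treated replicate 2 (edgeR). Per kilobase, DDR1 remained the more abundant receptor, with 16.1 ± 0.539 RPKM against 0.270 ± 0.0229 RPKM for DDR2 in non-treated cells and 12.2 ± 1.00 against 0.769 ± 0.136 RPKM in 6j treated cells (SD, n = 3). The log2 ratio of DDR2 to DDR1 in CPM was -5.54, -5.73 and -5.73 in non-treated and -4.00, -3.41 and -3.90 in 6j treated replicates 1 to 3.

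**Figure D2:**
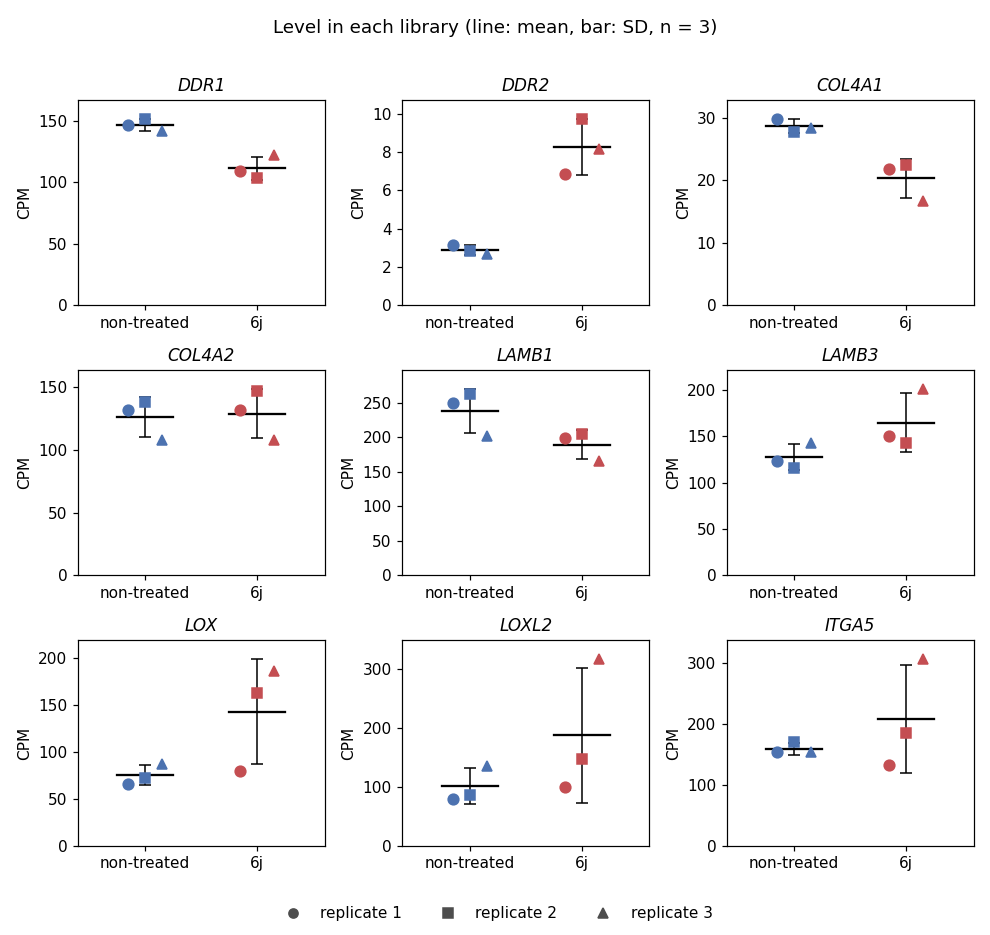
CPM of 9 genes is plotted for each library, with replicates 1 to 3 as circles, squares and triangles, the mean as a line and the SD as a bar (n = 3). The groups are apart for DDR1, DDR2 and COL4A1, barely apart for LAMB3, and level for COL4A2. They are spread out in 6j treated cells for LOX, LOXL2 and ITGA5, where replicate 3 reaches 186, 317 and 306 CPM.

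None of the 6 integrin alpha chains was called, and their median log2 fold change was 0.21. ITGA1, a collagen-binding alpha chain, had the smallest p of the class, with 189, 207 and 188 CPM in non-treated and 221, 258 and 235 CPM in 6j treated replicates 1 to 3. Its groups did not overlap. The log2 fold change was 0.29 (SE 0.09, adjusted p = 0.0686, edgeR), and the replicate block took the adjusted p to 0.00406. In the annotation, 5.63% of its exon bases are shared on the same strand with PELO and a second transcript, and reads there cannot be assigned to 1 gene.

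ITGA2, the alpha chain of the other main collagen integrin, was at 90.9, 95.3 and 74.5 CPM in non-treated and 93.9, 107 and 146 CPM in 6j treated replicates 1 to 3. The groups overlapped, and the log2 fold change of 0.41 had an adjusted p of 0.168 (edgeR). The highest of the 6 alpha chains per kilobase was ITGA5, the fibronectin receptor chain, with 21.0 ± 1.27 RPKM in non-treated and 27.4 ± 11.8 RPKM in 6j treated cells (SD, n = 3). By library it was at 153, 170 and 154 CPM in non-treated and 132, 185 and 306 CPM in 6j treated replicates 1 to 3. One 6j treated library was thus far above and another below all non-treated libraries. Its log2 fold change was 0.38 (SE 0.31, adjusted p = 0.503, edgeR) and 0.00 without 6j treated replicate 3. ITGA3 and ITGA6, the alpha chains of laminin-binding integrins, and ITGAV, the vitronectin receptor chain, had values of 0.12, -0.17 and -0.05.

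Of the 6 integrin beta chains, 4 were tested and none was called. ITGB1, the shared partner of the collagen, laminin and fibronectin alpha chains, was the most abundant of the 12 integrin chains of the set per kilobase, at 120 ± 11.3 RPKM in non-treated and 124 ± 19.4 RPKM in 6j treated cells (SD, n = 3). Its libraries were at 675, 696 and 801 CPM without and 657, 707 and 879 CPM with 6j in replicates 1 to 3. In both groups replicate 3 was the highest. ITGB1 had a log2 fold change of 0.05 (SE 0.12, adjusted p = 0.858, edgeR), with a 95% interval of -0.23 to 0.33.

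ITGB5, a partner of ITGAV, was at 190, 198 and 190 CPM in non-treated and 179, 151 and 165 CPM in 6j treated replicates 1 to 3. All 6j treated libraries were lower. ITGB5 had a log2 fold change of -0.22 (SE 0.08, adjusted p = 0.132, edgeR), with an adjusted p of 0.0333 under the replicate block. ITGB8, another ITGAV partner, was at 19.1, 49.3 and 47.1 CPM in non-treated and 55.8, 51.2 and 53.7 CPM in 6j treated replicates 1 to 3. The groups did not overlap, but non-treated replicate 1 lay far below the other libraries, and the log2 fold change of 0.48 (adjusted p = 0.478, edgeR) was 0.15 without it. ITGB4, the partner of ITGA6 in hemidesmosomes, was at 9.61 to 17.2 CPM in non-treated and 7.44 to 21.2 CPM in 6j treated libraries, with a log2 fold change of 0.06. ITGB3 and ITGB6 had totals of 26 and 48 counts over the 6 libraries and were not tested.

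Of the 9 collagen genes, 8 were tested and none was called, with 3 values above 0, 5 below and a median of -0.09. COL4A1 and COL4A2, which encode the chains of the common basement membrane collagen IV, lie head to head on chromosome 13, at 110148963 to 110307233 on the minus strand and 110305812 to 110513209 on the plus strand (GRCh38). RefSeq puts their start sites 127 bases apart (GRCh38.p14), and 226 bases of the 300-base windows are common to both. The COL4A2 window is printed because these neighbours gave different values, and capitals mark the bases that also lie in the COL4A1 window (chr13:110307108-110307407, minus strand).
COL4A2 start, chr13:110307034-110307333, plus strand: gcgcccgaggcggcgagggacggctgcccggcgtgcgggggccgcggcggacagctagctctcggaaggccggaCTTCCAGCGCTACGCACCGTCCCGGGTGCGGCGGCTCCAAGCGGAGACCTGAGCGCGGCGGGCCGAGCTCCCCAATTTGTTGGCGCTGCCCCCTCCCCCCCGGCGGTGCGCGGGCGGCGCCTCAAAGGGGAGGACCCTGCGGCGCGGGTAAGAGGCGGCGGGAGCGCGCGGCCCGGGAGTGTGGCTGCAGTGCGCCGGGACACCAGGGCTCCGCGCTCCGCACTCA
Neither window held any of the 4 motifs searched.

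COL4A1 was at 29.9, 27.7 and 28.4 CPM in non-treated and 21.8, 22.5 and 16.7 CPM in 6j treated replicates 1 to 3. The 6j treated libraries all lay below the non-treated ones. The level fell by 0.49 on the log2 scale (SE 0.13, adjusted p = 0.0438, edgeR), short of 1.5-fold, with an adjusted p of 0.00457 under the replicate block. Each of the 6 fits without 1 library gave an adjusted p above 0.05, up to 0.165 without non-treated replicate 1 (edgeR). COL4A2 was at 132, 138 and 108 CPM in non-treated and 132, 147 and 108 CPM in 6j treated replicates 1 to 3, nearly level within each replicate number. Its log2 fold change was 0.03 (SE 0.13, adjusted p = 0.913, edgeR), with a 95% interval of -0.27 to 0.33. The log2 ratio of COL4A1 to COL4A2 in CPM, computed after these values were seen and given without a test, was -2.14, -2.32 and -1.93 in non-treated and -2.60, -2.70 and -2.69 in 6j treated replicates 1 to 3. Per kilobase, COL4A1 was at 1.95 ± 0.0766 and 1.38 ± 0.215 RPKM and COL4A2 at 6.54 ± 0.826 and 6.69 ± 1.01 RPKM without and with 6j (SD, n = 3).

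Among the fibril-forming collagens, COL1A1 was expressed without its usual partner chain. COL1A1 was at 275, 241 and 215 CPM in non-treated and 272, 216 and 203 CPM in 6j treated replicates 1 to 3, whereas COL1A2 had 0 counts in every library, which allows up to 0.0952 CPM in the shallowest library (3 counts, counting error only). The COL1A1 values overlapped, with a log2 fold change of -0.08. COL3A1 was at 47.8, 37.9 and 47.2 CPM in non-treated and 38.7, 25.9 and 40.4 CPM in 6j treated replicates 1 to 3. Its groups overlapped but each 6j treated library was below the non-treated library of its number. The log2 fold change was -0.34 (adjusted p = 0.252, edgeR), and with the replicate block the adjusted p was 0.00885. COL5A1 had a value of 0.07, and COL5A2, its usual chain partner and not among the 45 genes, was under 1 CPM in every library.

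Of the 9 collagen genes, COL12A1, a fibril-associated collagen, was the highest per kilobase in non-treated cells, at 31.6 ± 3.97 RPKM beside 28.6 ± 0.848 RPKM for COL5A1 (SD, n = 3). In 6j treated cells they were at 28.1 ± 6.20 and 30.1 ± 7.65 RPKM (SD, n = 3), and in neither group did these neighbours differ beyond their spread. It had 339, 407 and 436 CPM without and 267, 368 and 419 CPM with 6j in replicates 1 to 3. The 6j treated library was the lower one within each number, and the log2 fold change was -0.17 (SE 0.17, adjusted p = 0.58, edgeR). COL6A1 and COL6A2, chains of the microfibrillar collagen VI, were near the limit of the test, at 0.651 to 3.03 and 0.222 to 0.524 CPM over all libraries, with values of 0.22 and -0.09 and wide intervals.

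**Figure D3:**
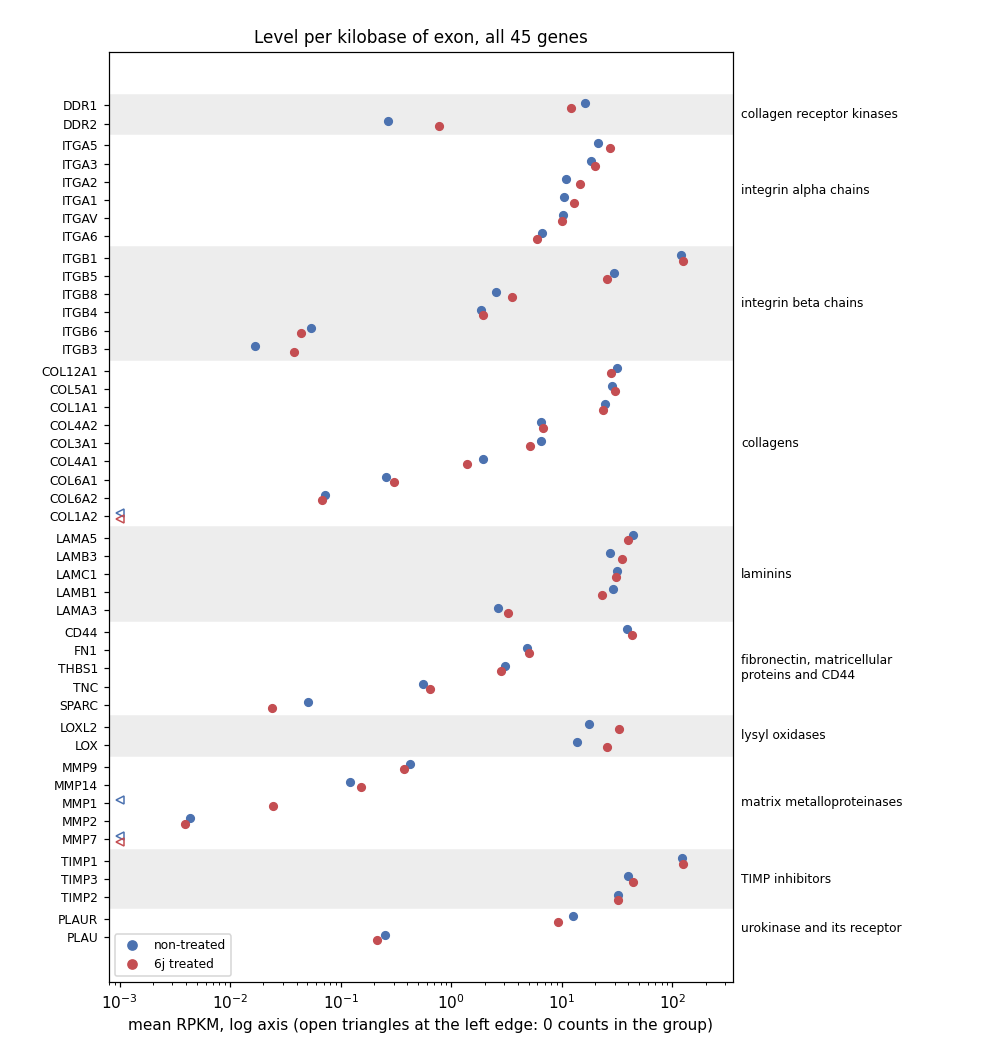
Mean RPKM on a log axis is plotted for all 45 genes by class, in blue for non-treated and red for 6j treated cells (n = 3 libraries each). TIMP1 and ITGB1 are the highest. COL1A2 and MMP7 sit at the left edge with 0 counts in both groups, and MMP1 with 0 counts in non-treated cells only. The points of the groups lie close together for most genes. DDR2 is further apart, as are MMP1, ITGB3 and SPARC, which had too few counts to be tested.

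The 5 laminin chains were all tested and none was called. LAMB1, the beta chain of many basement membrane laminins, was at 250, 262 and 201 CPM in non-treated and 199, 204 and 165 CPM in 6j treated replicates 1 to 3. Replicate 3 was the lowest of each group, and the groups overlapped by the margin between 201 and 204 CPM. LAMB1 had a log2 fold change of -0.33 (SE 0.12, adjusted p = 0.126, edgeR), and with the replicate block the adjusted p was 0.002. LAMB3, the beta chain of the epithelial laminin-332, was at 123, 116 and 143 CPM in non-treated and 150, 143 and 201 CPM in 6j treated replicates 1 to 3, so the groups were apart by less than the rounding of these values. Its log2 fold change was 0.37 (SE 0.14, adjusted p = 0.129, edgeR), and the block gave an adjusted p of 0.00231. Without 6j treated replicate 3 it was 0.20.

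LAMA3, the alpha chain of laminin-332, was at 41.6, 47.7 and 28.2 CPM in non-treated and 51.1, 54.5 and 38.1 CPM in 6j treated replicates 1 to 3. Each 6j treated library was above the non-treated library of its number. The log2 fold change of 0.29 had an adjusted p of 0.436, and of 0.0124 with the block (edgeR). LAMA5, an alpha chain of epithelial basement membranes, was the highest of the 5 per kilobase in both groups, at 43.9 ± 4.41 RPKM in non-treated and 39.8 ± 1.80 RPKM in 6j treated cells (SD, n = 3). It had 650, 677 and 557 CPM without and 598, 549 and 558 CPM with 6j in replicates 1 to 3. These ranges overlapped, with a log2 fold change of -0.14 (SE 0.10, adjusted p = 0.395, edgeR). LAMC1, the common gamma chain, had a value of -0.05.

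Fibronectin (FN1), thrombospondin-1 (THBS1), tenascin-C (TNC) and the hyaluronan receptor CD44 were tested and none was called. CD44 had both the highest level per kilobase and the smallest p of these, with 38.5 ± 4.18 RPKM in non-treated and 43.0 ± 11.2 RPKM in 6j treated cells (SD, n = 3). It was at 358, 365 and 433 CPM without and 386, 347 and 558 CPM with 6j in replicates 1 to 3. The 6j treated libraries held both the lowest and the highest value. CD44 had a log2 fold change of 0.16 (SE 0.18, adjusted p = 0.625, edgeR). FN1, THBS1 and TNC had values of 0.04, -0.12 and 0.21, and each 95% interval included 0. SPARC, a matricellular collagen-binding protein, had 39 counts over the 6 libraries and was not tested.

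Both lysyl oxidases had higher means in 6j treated cells but a wide spread, and neither was called. LOX was at 65.8, 72.5 and 87.3 CPM in non-treated and 79.5, 163 and 186 CPM in 6j treated replicates 1 to 3. Replicates 2 and 3 of the treated cells were above all non-treated libraries, while replicate 1 lay among them, and each 6j treated library was above the non-treated library of its number. LOX had a log2 fold change of 0.93 (SE 0.34, adjusted p = 0.16, edgeR), with a 95% interval of 0.08 to 1.77. Without 6j treated replicate 1 it was 1.21 (adjusted p = 0.00449, edgeR) and passed the call, and in the other 5 fits without 1 library the adjusted p was up to 0.378. With the replicate block it was 0.85 (SE 0.25, adjusted p = 0.129, edgeR). In the annotation, 2.49% of the LOX exon bases face SRFBP1 on the opposite strand.

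LOXL2 was at 79.9, 86.8 and 136 CPM in non-treated and 98.9, 147 and 317 CPM in 6j treated replicates 1 to 3. In both groups replicate 3 was the highest, and the groups overlapped, but each 6j treated library was above the non-treated library of its number. Its log2 fold change was 0.89 (SE 0.52, adjusted p = 0.372, edgeR) and 0.28 without 6j treated replicate 3. With the replicate block it was 0.76 (SE 0.21, adjusted p = 0.1, edgeR). Of the LOXL2 exon bases, 2.1% are shared with ENTPD4 on the same strand and 3.12% lie opposite another gene. Per kilobase, LOXL2 was at 17.7 ± 5.38 and 32.9 ± 20.0 RPKM and LOX at 13.6 ± 1.98 and 25.7 ± 10.1 RPKM without and with 6j (SD, n = 3).

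The 5 metalloproteinases of the set were low, and its 3 TIMP genes were abundant. MMP1, MMP2 and MMP7, a collagenase, a gelatinase and matrilysin, had totals of 5, 4 and 0 counts over the 6 libraries and were not tested. MMP9, the other gelatinase, was at 0.929, 1.46 and 0.603 CPM in non-treated and 1.04, 0.846 and 0.728 CPM in 6j treated replicates 1 to 3. MMP14, a membrane-bound collagenase, was at 0.398, 0.634 and 0.574 CPM in non-treated and 0.885, 0.661 and 0.495 CPM in 6j treated replicates 1 to 3. Both sets of values overlapped. Of the MMP9 exon bases, 18.41% lie opposite another gene on the other strand. The log2 fold changes of MMP9 and MMP14 were -0.19 and 0.35 (adjusted p = 0.826 and 0.675, edgeR), with 95% intervals of -1.14 to 0.77 and -0.65 to 1.35, so a 2-fold fall of MMP9 and a 2-fold rise of MMP14 lay inside the intervals.

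TIMP1 was the highest of the 45 genes per kilobase, at 121 ± 2.17 RPKM in non-treated and 125 ± 8.99 RPKM in 6j treated cells (SD, n = 3), next to ITGB1. It had 184, 185 and 190 CPM without and 187, 183 and 209 CPM with 6j in replicates 1 to 3, and these overlapped. Its log2 fold change of 0.05 (SE 0.08, adjusted p = 0.756, edgeR) had a 95% interval of -0.13 to 0.23. TIMP3, the inhibitor that is bound to matrix, was at 190, 182 and 180 CPM in non-treated and 209, 196 and 201 CPM in 6j treated replicates 1 to 3. All 6j treated libraries were above all non-treated libraries, but the log2 fold change was 0.14 (SE 0.07, adjusted p = 0.28, edgeR). TIMP2 had a value of 0.01.

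PLAUR, the receptor that holds urokinase at the cell surface, was at 67.8, 57.3 and 41.7 CPM in non-treated and 44.0, 37.9 and 41.3 CPM in 6j treated replicates 1 to 3. The 6j treated libraries were close together, and non-treated replicate 3 lay among them. PLAUR had a log2 fold change of -0.44 (SE 0.16, adjusted p = 0.131, edgeR), with an adjusted p of 0.048 under the replicate block. Without non-treated replicate 3 it was -0.61 (adjusted p = 0.035, edgeR) and passed the call. PLAU, urokinase itself, was at 0.338 to 1.05 CPM over all libraries, with a log2 fold change of -0.25, and 31.05% of its exon bases lie opposite another gene on the other strand.

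In 8 of the 38 genes tested, the groups did not overlap, against 31.7% of all rows tested. DDR2, ITGA1, ITGB8, LAMB3 and TIMP3 were higher in all 6j treated libraries (16.0% of all rows), and DDR1, ITGB5 and COL4A1 were lower (15.8%). The 10 genes with an adjusted p under 0.05 under the block were DDR2, ITGA1, LAMA3 and LAMB3 on the higher side and DDR1, ITGB5, COL3A1, COL4A1, LAMB1 and PLAUR on the lower side.

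One library stood out across the set. 6j treated replicate 3 was the highest of the 6 libraries for 17 of the 38 genes tested (44.7%), against 20.3% of all rows. The median log2 ratio of the 38 genes to the mean of the non-treated libraries was -0.04, -0.01 and 0.01 in non-treated replicates 1 to 3 and -0.10, -0.07 and 0.18 in 6j treated replicates 1 to 3. Without 6j treated replicate 3, the median log2 fold change of the set was -0.07, and 11 genes changed sign, none of which was called. DDR2 (1.52) and DDR1 (-0.46) kept their directions without this library, as did COL4A1 (-0.37).

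**Figure D4:**
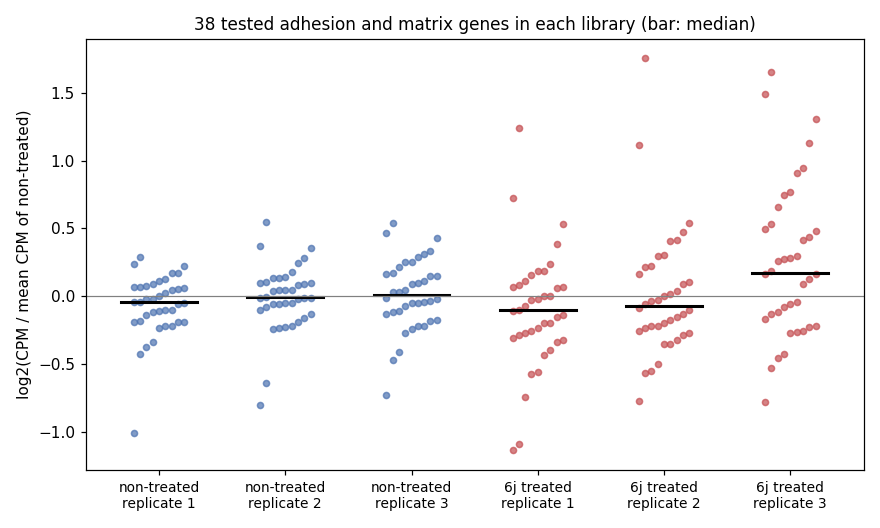
Each point is 1 of the 38 genes tested, as the log2 ratio of its CPM in a library to its mean CPM in non-treated cells, and the bar is the median of the library. The median of 6j treated replicate 3 is 0.18, whereas those of the other 5 libraries are between -0.10 and 0.01.

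Around these genes, 151 further genes of adhesion and matrix biology were listed, and 118 were tested. Of these, 6 were called, 3 higher and 3 lower, beside the 3.6% over all rows, and their median log2 fold change was -0.08. With the replicate block 8 were called, against 6.47% of all rows. The other integrin chains (6 tested), laminin chains (5 tested), genes of collagen synthesis and cross-linking (21 tested) and matrix glycoproteins (17 tested) had no called gene.

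The other collagens had 2 called genes among 16 tested, 1 higher and 1 lower, against 3.6% of all rows called. COL9A2, a chain of a fibril-associated collagen of cartilage, was at 1.65, 2.63 and 2.38 CPM in non-treated and 5.28, 6.72 and 3.76 CPM in 6j treated replicates 1 to 3. Every 6j treated library was higher, and the log2 fold change was 1.24 (SE 0.29, adjusted p = 0.0307, edgeR). COL27A1, a fibrillar collagen, was at 27.3, 25 and 18.5 CPM in non-treated and 16.0, 15.8 and 12.8 CPM in 6j treated replicates 1 to 3. All 6j treated libraries were lower, and the level fell by 0.67 on the log2 scale (SE 0.16, adjusted p = 0.0372, edgeR).

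Of 31 focal adhesion genes tested, 10 had values above 0 and 21 below, beside 8086 above and 7871 below over all rows. Of the 31, 1 was called, against 3.6% of all rows. An adjusted p under 0.05 was reached by 4, all lower, against 4.37% of all rows on that side. The called gene was TNS2, a tensin that links integrins to actin. It had 27.1, 29.1 and 32.0 CPM in non-treated and 18.4, 15.9 and 22.6 CPM in 6j treated replicates 1 to 3. The groups were apart, and TNS2 fell by 0.63 on the log2 scale (SE 0.14, adjusted p = 0.0264, edgeR). The parvin gene PARVB (-0.58), the tensin gene TNS1 (-0.46) and the actinin gene ACTN4 (-0.44) had adjusted p-values of 0.0211, 0.0232 and 0.0293 (edgeR) and were under 1.5-fold. PARVB passed the call with the replicate block.

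Among 22 other proteases and inhibitors tested, 3 were called, 2 higher and 1 lower. Over all rows tested, 3.6% were called, 2.48% higher and 1.12% lower. MMP28, the secreted epilysin, was at 4.35, 6.41 and 5.83 CPM in non-treated and 2.24, 2.51 and 2.15 CPM in 6j treated replicates 1 to 3. MMP24, a membrane-bound metalloproteinase, was at 3.37, 3.87 and 3.27 CPM in non-treated and 6.32, 10.3 and 5.82 CPM in 6j treated replicates 1 to 3. The groups were apart in opposite directions, with log2 fold changes of -1.26 for MMP28 (SE 0.23, adjusted p = 0.0132) and 1.09 for MMP24 (SE 0.25, adjusted p = 0.0287, edgeR). Of the MMP24 exon bases, 21.77% lie opposite other genes on the other strand, MMP24OS among them. Strandedness is not stated, so reads there cannot be assigned to 1 gene. ADAM17, the sheddase that releases many cell surface proteins, was at 49.2, 52.5 and 47.1 CPM in non-treated and 61.3, 85.9 and 76.4 CPM in 6j treated replicates 1 to 3. Its 6j treated libraries were all higher, and its log2 fold change of 0.59 (SE 0.12, adjusted p = 0.0211, edgeR) was close to the 1.5-fold limit and fell below it with the replicate block (0.58). Of the ADAM17 exon bases, 13.63% lie opposite other genes on the other strand, IAH1 among them.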

How the data were processed

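RNA-seq of MHCC-97H cells was used, with 3 libraries of 6j treated and 3 of non-treated cells grouped by the labels. Per gene and library, the authors deposited counts as whole numbers, not normalized, and the submitters' processing notes name HISAT2, StringTie and GRCh38, with versions and annotation not given in the sources used here. Strandedness is not stated, so genes that overlap on opposite strands cannot be told apart. The sources do not tell reads from rounded estimates. All 19974 Ensembl identifiers of the table were found in GENCODE version 29, which gave coordinates and exon lengths.

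Rows with low counts were removed by filterByExpr (about 10 counts in enough libraries and 15 in total), which left 15957. TMM factors and robust quasi-likelihood fits with no covariate came from edgeR 4.0.16 with limma 3.58.1 under R 4.3.3. Adjusted p-values are over all these rows, and standard errors were derived from the F statistic. Exon sharing, CPM, RPKM and promoter motifs were computed by script (Python 3.11.15). With totals of 31533403 to 38018349 counts, depth limits the genes with few counts, while the spread between libraries enters every standard error. Floors cover counting error only. Scripts were tested on simulated data.

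The genes, lists and tests were chosen with earlier results of these data known. Values are given for the called genes, the gene of each class with the smallest adjusted p and that with the highest RPKM, and the called genes of related lists. Others named, such as ITGA2, ITGB8, COL1A1, COL3A1, COL4A2, LAMA3, LAMB3, PARVB, TNS1 and ACTN4, and the chain partner COL5A2, were chosen after their values were seen. Deviations from the group means correlated at 0.171, 0.18 and 0.312 for libraries of the same replicate number and at -0.231 to 0.0795 for different numbers, across all rows tested, so the numbers were treated as pairing the libraries. What a number stands for is not in the labels. Alternatives were median-ratio size factors, no filter, DESeq2 1.42.0, Ensembl rows only, other thresholds, fits without each library in turn and the replicate block. Protein data and RT-qPCR were not analysed here, and some listed genes are not reported here.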

Additional observations from a re-analysis of the deposited data

How the results depend on the processing

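The number of DEGs over all rows was 574 and lay between 509 and 802 with median-ratio size factors, no filter on low counts, DESeq2 or Ensembl rows only. It was 1033 with the replicate block, 32 with the formal test of a 1.5-fold change, 1462 with no fold change minimum and 1136 with an unadjusted p, and 186 to 772 with 1 library left out (186 without non-treated replicate 1, 379 without non-treated replicate 3 and 193 without 6j treated replicate 2). The number of matrix and adhesion genes called was 1, DDR2, in all of these except the formal test (0), no fold change minimum (3, of which 1 was higher and 2 lower), the unadjusted p (2 higher, DDR2 and LOX) and the fits without 1 library (1 to 2, with 1 to 2 higher and 0 to 1 lower). LOX was added without 6j treated replicate 1 and PLAUR without non-treated replicate 3. The replicate block changed no call among the 38 genes. The median log2 fold change of the set was 0.01 with the block and -0.07 to 0.11 with 1 library left out, the lowest value being without 6j treated replicate 3. The sign of 18 genes, none of them called, changed in at least 1 alternative. With 1 library left out, their values were -0.07 to 0.29 for CD44, -0.22 to 0.02 for COL1A1, -0.07 to 0.14 for COL4A2, -0.13 to 0.24 for COL5A1, -0.61 to 0.59 for COL6A1, -0.43 to 0.11 for COL6A2, -0.07 to 0.14 for FN1, 0.00 to 0.63 for ITGA5, -0.17 to 0.10 for ITGAV, -0.09 to 0.13 for ITGB1, -0.49 to 0.37 for ITGB4, -0.11 to 0.00 for LAMC1, -0.45 to 0.19 for MMP9, -0.82 to 0.05 for PLAU, -0.23 to 0.11 for THBS1, -0.01 to 0.09 for TIMP1, -0.17 to 0.15 for TIMP2 and -0.32 to 0.58 for TNC. With the replicate block, COL6A1 was -0.01 and ITGB4 was -0.02. The causes were not tested. Genes near or under 1 CPM, such as MMP9, MMP14, COL6A2 and PLAU, had intervals wider than 1.5-fold in either direction, so changes of that size lay inside the intervals. The parts of depth and of the spread between libraries in these intervals were not tested.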

Other observations

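Several genes of the related lists, counted above but not described, were near a threshold. SERPINE2, an inhibitor of matrix-bound serine proteases, was at 107, 114 and 84.4 CPM in non-treated and 148, 165 and 141 CPM in 6j treated replicates 1 to 3, with a log2 fold change of 0.57 (adjusted p = 0.0211, edgeR), just under 1.5-fold. COL4A5, which encodes a chain of a second collagen IV network, was at 156, 158 and 150 CPM in non-treated and 128, 126 and 132 CPM in 6j treated replicates 1 to 3, and fell by 0.27 on the log2 scale (adjusted p = 0.0498, edgeR). COL4A6, its partner chain, fell by 0.64 (adjusted p = 0.0091) and COL18A1, a basement membrane collagen, by 0.79 (adjusted p = 0.0288) in the edgeR fit with the replicate block, and neither was called without it. Of the COL18A1 exon bases, 16.43% lie opposite SLC19A1 on the other strand. COLGALT1 and P3H4, which act on collagen chains during their synthesis, had values of -0.36 and -0.28 (adjusted p = 0.0272 and 0.0456, edgeR). ADAM15, a membrane-bound disintegrin protease, and MMP15, a membrane-bound metalloproteinase at 43.1, 42.1 and 45.4 CPM in non-treated and 32.2, 30.3 and 36.8 CPM in 6j treated replicates 1 to 3, had values of -0.43 and -0.40 (adjusted p = 0.0171 and 0.0406, edgeR). These genes were chosen after their values were seen.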
